A study of Danio rerio with 16 samples.

Results

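Zebrafish primordial germ cells (PGCs), from which eggs and sperm descend, were followed here for DNA methylation over the interval between 24 and 36 hours post fertilisation (hpf). The comparison took the 4 PGC libraries of these stages out of 16 libraries in the series, 2 at 36 hpf (prim-25 stage) and 2 at 24 hpf (prim-5 stage). Somatic cells (soma) of the same stages gave 4 more libraries, which served for comparison only. All cells came from embryos with the kop-egfp-f-nanos3′UTR transgene, in a line that also carries cry:dsred. The promoter (kop) and nanos3 end keep a membrane-bound green fluorescent protein in PGCs. The cells of each group were separated on that fluorescence by flow sorting, and soma is therefore a mixture of all other cell types of the embryo. Both stages had the same genotype, but embryos older than 24 hpf were kept in N-phenylthiourea, which blocks pigment, so the later stage and this compound cannot be told apart. The study's methods call the replicates of 24 and 36 hpf biological. The errors below are the spread between the 2 libraries of a stage or between the 2 tables.

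Methylation of cytosine in CpG dinucleotides is placed and copied by DNA methyltransferases and can be removed by dilution at replication or through oxidation by TET enzymes. Most CpGs of a vertebrate genome are methylated, while CpG-dense promoters are usually kept free of the mark. Distal regulatory elements of lower CpG density often lose methylation as the body plan of a fish embryo is laid out. Mouse PGCs erase nearly all of their methylation before and after they reach the gonad. Zebrafish PGCs at the pharyngula stages studied here have reached the region where the gonad will form.

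The unit of measurement was the window, a stretch of 500 bp of the danRer10 genome. Its methylation level was the number of methylated calls over all calls at its CpGs, where a call is a read of 1 CpG. Windows were built from the 10260021 nuclear CpGs listed in both deposited tables, with 1 table for each replicate number. Of 1802463 windows holding such a CpG, 1011622 had at least 3 of them and at least 20 calls in each of the 4 PGC libraries. A CpG was covered on average by 21.5 and 13.6 calls in PGCs at 36 hpf (replicates 1 and 2) and by 7.99 and 12 calls in PGCs at 24 hpf. The library of 24 hpf replicate 1 was thus the shallowest of the 4, with a median of 52 calls per window. Unmethylated lambda DNA, added as a control of conversion, read as methylated in 0.285% of 400338 calls at 36 hpf and in 0.368% of 115021 calls at 24 hpf in the first table. The second table held 50 lambda calls at 36 hpf and 105 at 24 hpf, too few to check conversion there.

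PGCs were less methylated at 36 hpf than at 24 hpf in both tables, by an amount that was small for the genome as a whole. The mean window level was 85.8% and 85.5% at 36 hpf, against 87.7% and 87.6% at 24 hpf, and the stages did not overlap. The mean change was -1.98 ± 0.117 percentage points (SD, n = 2 tables). An exact two-sided permutation of the stage labels gave p = 0.333, which is the smallest p that 2 against 2 libraries allow, so the change cannot pass a threshold of 0.05 in this design. The median window was lower by 1.62 points in the first table and by 1.58 points in the second. Lower values were found in 64.4% and 64.5% of windows, and 42.7% of windows were lower in both tables. Only 12.8% were higher in both.

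The change was spread over the methylated part of the genome. Windows of 90% to 100% methylation made up 65.6% and 62.9% of windows at 36 hpf, against 72.8% and 73.9% at 24 hpf. Windows of 80% to 90% took 22.1% and 24.1% at 36 hpf, against 16.3% and 15.8% at 24 hpf. The classes between 30% and 80% also held more windows at 36 hpf in both replicates. Windows of 30% to 50%, for example, made up 0.989% and 0.996% at 36 hpf, against 0.676% and 0.690% at 24 hpf. The unmethylated end stayed in place, with 4.50% and 4.51% of windows under 10% at 36 hpf, against 4.55% and 4.59% at 24 hpf. Windows with every call methylated made up 0.857% and 2.16% at 36 hpf, against 11% and 5.66% at 24 hpf. In each stage this share was higher in the shallower library, and the part of depth in the shares near full methylation was not tested.

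**Figure D1:**
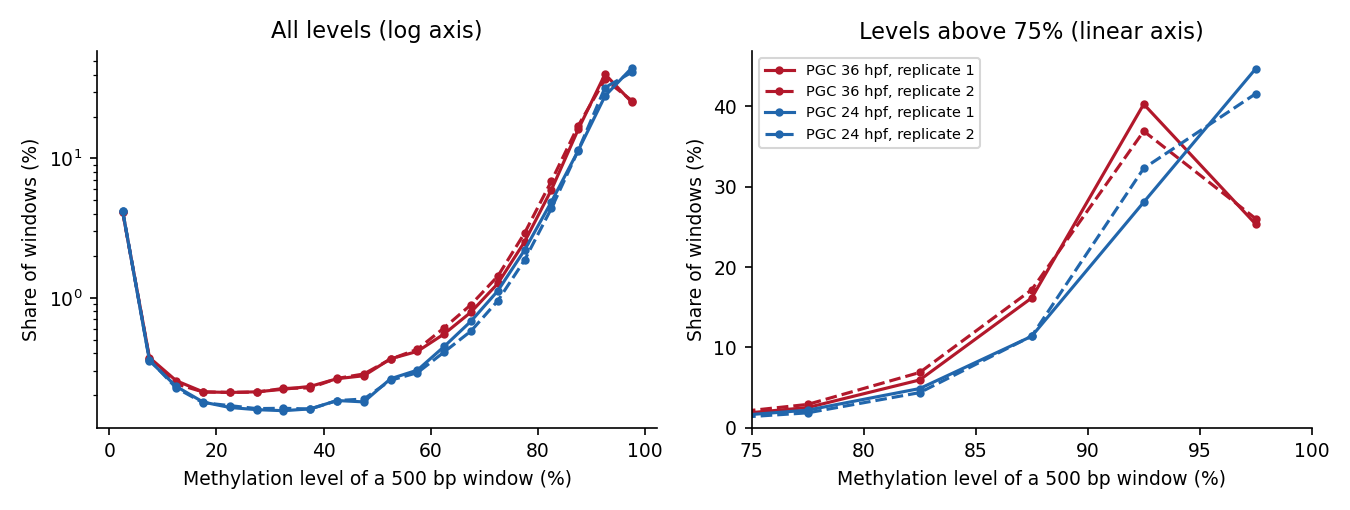
Share of the 1011622 windows (%) in each 5-point bin of methylation level (%), for the 2 PGC libraries of 36 hpf (red) and the 2 of 24 hpf (blue), with a log axis on the left and levels above 75% on a linear axis on the right. The replicates of a stage lie close together, and at 36 hpf fewer windows sit in the highest bin and more sit between 15% and 90%.

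All 25 chromosomes were lower at 36 hpf in both tables. Their mean changes ran from -2.15 to -1.69 points in the first table and from -2.31 to -1.90 points in the second. In each table the whole range was narrower than any single change, and whether chromosomes differ was not tested. Chromosome 24 changed by -2.15 and -2.23 points, and chromosome 8 by -1.70 and -1.90 points. In soma the same 25 means ran from -1.26 to -0.758 points and from -1.88 to -1.51 points, and on 25 chromosomes the PGC mean was below the soma mean in both tables.

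The size of the change depended on how methylated a window had been. To keep choice and measurement apart, windows were put in classes by the 24 hpf library of the other table. The largest mean change fell in windows of 50% to 70%, which changed by -7.60 points in the first table and by -5.12 points in the second. Windows of 70% to 80% changed by -4.45 and -3.89 points, and those of 90% to 100% by -1.69 and -1.95 points. The tables disagreed most for windows of 30% to 50%, with -4.53 and -1.16 points. Windows of 10% to 30% moved the other way, by 0.944 and 1.78 points. Windows under 10% changed by 0.0778 and 0.171 points, with mean levels of 2.11% and 2.04% at 36 hpf, against 2.03% and 1.86% at 24 hpf. In windows of 50% to 70%, losses of 20 points or more were found in 23.8% and 14.5%, against gains of that size in 4.68% and 3.25%. The matching shares for windows of 90% to 100% were 0.263% and 0.469% lost and 0.132% and 0.0734% gained.

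The same classes gave another order when taken from 7 hpf, the gastrula stage. By the mean of the 2 PGC libraries of 7 hpf, windows of 90% to 100% changed from 24 to 36 hpf by -2.21 and -2.32 points. Windows that had been at 50% to 70% at 7 hpf changed by -0.161 and 0.396 points, and those at 30% to 50% by 0.544 and 1.64 points. The loss seen in windows of intermediate level at 24 hpf was thus not seen, on average, in windows already intermediate at 7 hpf.

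Earlier loss in PGCs went with later loss in PGCs. Windows were sorted by their change from 7 to 24 hpf in one table and then measured from 24 to 36 hpf in the other. Windows that had lost 20 points or more changed by a further -17.3 points in the first table (12367 windows) and -9.52 points in the second (16446 windows). Windows that had lost 10 to 20 points changed by -4.89 and -3.65 points. Windows that had stayed within 5 points changed by -1.42 and -1.73 points. At the other end, windows that had gained 20 points or more changed by a further 5.0 and 2.90 points. The order of the classes from loss to gain was the same in both tables, while the size of the loss was not. In these same windows soma changed by -8.13 and -7.37 points where PGCs had lost 20 points or more before.

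CpG density ordered the change as well. Windows with under 5 CpGs listed in either table changed by -2.45 and -2.63 points, those with 10 to 14 by -1.89 and -2.08 points, and those with 25 or more by -0.458 and -0.742 points. The step was the same in sign between every neighbouring pair of classes in both tables. Within level classes the order did not hold throughout. In windows of 90% to 100% the mean change was -2.33 ± 0.12 points with under 5 CpGs and -0.872 ± 0.293 points with 25 or more (SD, n = 2 tables). In windows of 10% to 70% the loss was smaller with under 5 CpGs, at -4.41 and -3.32 points, than with 5 to 9. Between windows of this level class the direction itself differed. Those with 5 to 9 CpGs changed by -6.08 and -3.92 points, whereas those with 25 or more changed by 2.92 and 3.76 points (1322 and 1284 windows). Losses of 20 points or more were found in 19.3% and 11.8% of those with 5 to 9 CpGs and in 6.35% and 3.97% of those with 25 or more. Gains of that size were found in 4.16% and 2.90% and in 10.2% and 9.74% of the same classes.

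Windows that were unmethylated at 7 hpf, under 10% in both PGC libraries of that stage, stayed so with few exceptions. Their mean level was 2.26% and 2.06% at 36 hpf, against 1.93% and 1.73% at 24 hpf. The change of 0.334 and 0.335 points was alike in both tables. The lambda control, at 0.285% at 36 hpf against 0.368% at 24 hpf in the first table, could not be read in the second, and the part of conversion in this change was not tested. Of 44674 such windows, 316 were higher by 10 points or more in both tables (0.707%) and 8 were lower by as much (0.0179%). A fall of 10 points needs a level of at least 10% at 24 hpf, so the 2 counts are not on equal terms. The share at or above 10% in both libraries of a stage was 3.38% at 36 hpf and 2.22% at 24 hpf. Windows directly next to an unmethylated one averaged 49.1% and 49.0% at 36 hpf, against 49.6% and 49.3% at 24 hpf, a change of -0.557 and -0.261 points. Windows up to 1 kb away changed by -1.41 and -1.58 points, those up to 5 kb away by -1.82 and -2.01 points, and those farther than 20 kb by -2.15 and -2.33 points. Restricted to windows of at least 80% methylation, the change was -0.935 and -1.58 points next to an unmethylated window and -1.94 and -2.21 points beyond 20 kb, so a smaller change near unmethylated windows was seen at high levels too.

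**Figure D2:**
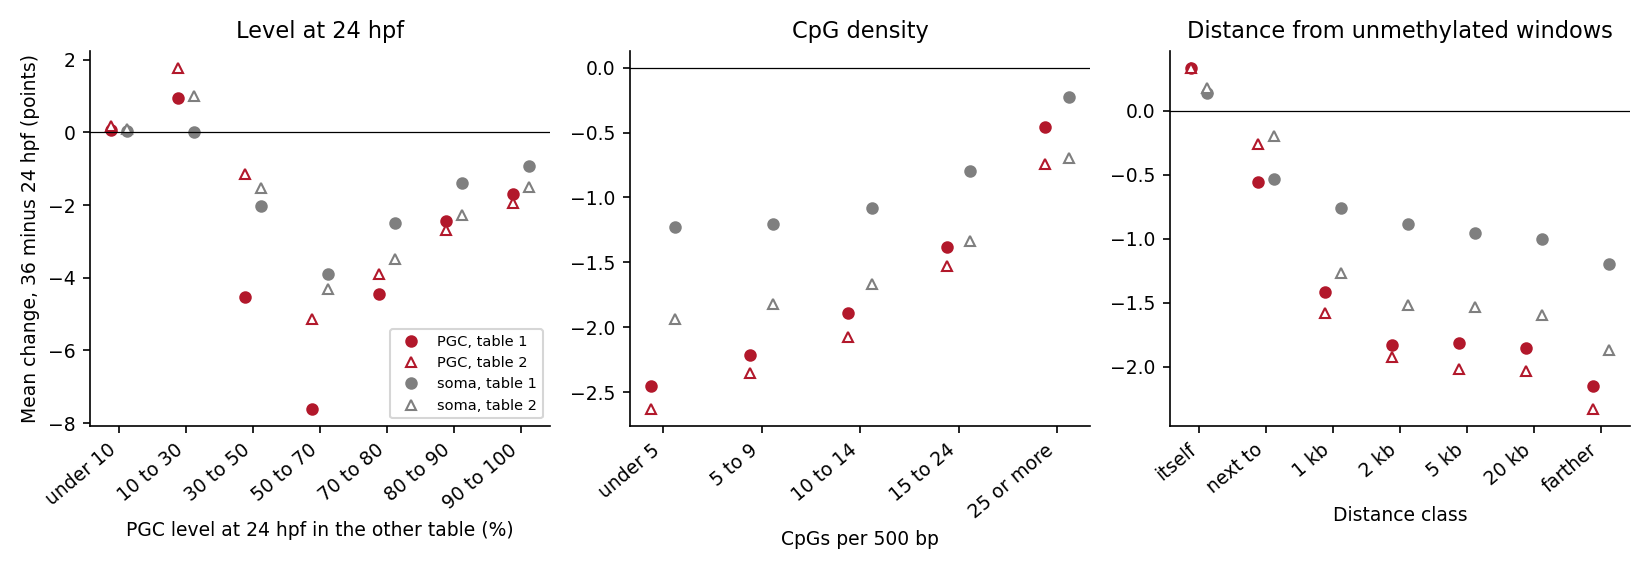
Mean change in methylation level (36 minus 24 hpf, percentage points) in PGCs (red) and soma (grey), for classes of 24 hpf PGC level, of CpG number per window and of distance from the nearest window unmethylated in PGCs at 7 hpf. Filled circles are the first table and open triangles the second; the PGC change was largest at 50% to 70%, at low CpG density and away from unmethylated windows.

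Large losses recurred in the other set of libraries more often than large gains did. Both recurred above the share of all windows, but most windows start too high for a large gain. A loss of 20 points or more was found in 14321 windows of the first table. Their median change in the second table, which took no part in the choice, was -13.0 points, beside -1.58 points for all windows. Of them 84.2% were lower there, against 64.5% of all windows, and 30.7% were lower by 20 points or more, against 1.26%. The choice in the second table gave 12745 windows, with a median of -13.7 points in the first table beside -1.62 points for all. Gains of 20 points or more were found in 4107 and 2798 windows. Their median change in the other table was 0.265 and 0.615 points, and 50.9% and 52.4% were higher there, against 34.1% and 34.6% of all windows. The mean of these 2 medians, 0.44 points, was 0 with calls thinned to equal numbers and 1.70 points with at least 5 CpGs and 30 calls. Gains by 20 points or more recurred in 7.06% and 10.4%, against 0.277% and 0.406% of all windows. All windows are a low baseline here, since the chosen ones averaged 67.3% and 62.0% at 24 hpf in the other table. Among windows of 30% to 50% at 24 hpf, 7.76% gained as much in the first table and 7.20% in the second. For windows of 50% to 70% these shares were 4.68% and 3.25%. Counting windows that moved by 20 points or more in both tables, 4392 were lower (0.434% of all windows) and 290 were higher (0.0287%). These counts are not on equal terms. The median window started at 94.2% in the first table and at 94% in the second, too high for a gain of 20 points.

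The recurring losses were narrow. Around windows chosen as losses in the first table, the mean PGC change measured in the second was -13.3 points at the window itself, -6.56 and -6.43 points in the windows on either side, and -2.95 and -3.0 points at a distance of 1 kb. Beyond that it stayed between -3.56 and -2.67 points out to 5 kb. Through 4, 7, 24 and 36 hpf, the PGC libraries of the second table averaged 89.6%, 88.9%, 71.0% and 57.8% in the chosen windows. The windows chosen in the second table averaged 91.5%, 90.8%, 77.1% and 62.6% in the PGC libraries of the first at those stages. The step after 24 hpf was the smaller one in the second table and the larger one in the first. They were not unusually dense in CpGs, with a median of 9 against 10 for all windows. Soma lost methylation at these windows too, with a mean change of -10.9 points in the second table and, for the windows chosen in the second table, -7.80 points in the first. Windows chosen as gains in PGCs changed in soma by -0.0151 and -0.0253 points.

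**Figure D3:**
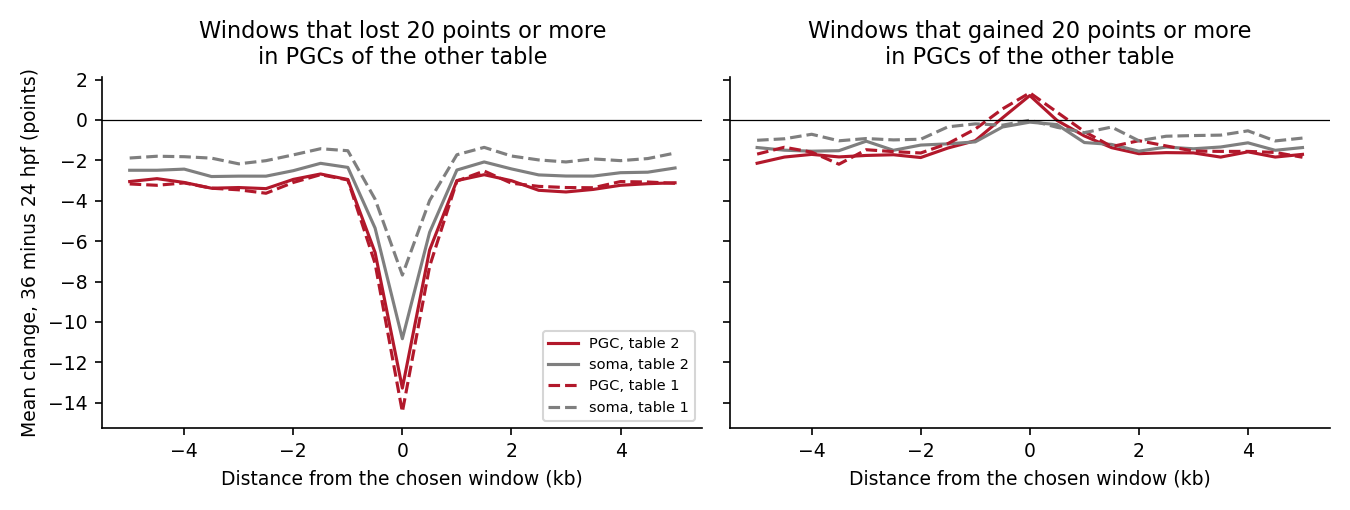
Mean change (36 minus 24 hpf, percentage points) against distance (kb) from windows that lost (left) or gained (right) 20 points or more in PGCs of one table, measured in the other table, in PGCs (red) and soma (grey). Solid lines were measured in the second table and dashed lines in the first; losses recurred in both directions of choice with a dip confined to about 1 kb on either side, and the gains shrank to a peak of 1.21 points at the window in the second table.

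Each of the 1011622 windows was tested with edgeR, whose quasi-likelihood test compared counts of methylated with those of unmethylated calls. A window was called where the Benjamini-Hochberg adjusted p was under 0.05 and the level moved by at least 10 points the same way in each table. Of all windows, 425 were called lower (0.042%) and 10 were called higher (0.000989%). At an unadjusted p under 0.05 there were 76996 lower windows (7.61%) and 7553 higher ones (0.747%). These counts depended strongly on the settings. limma called 0 in either direction, with 63833 lower and 11653 higher windows at an unadjusted p under 0.05, and edgeR called 27 lower windows and 1 higher window among windows with at least 5 CpGs and 30 calls. With 1 library left out, where the lone library of a stage is assumed to vary like the other pair, the lower calls numbered 34 without 36 hpf replicate 1, 35 without 36 hpf replicate 2, 983 without 24 hpf replicate 1 and 2579 without 24 hpf replicate 2. With the same libraries left out in turn, the higher calls numbered 7, 6, 192 and 328. After thinning the calls of each window to the lowest of its 4 libraries, a setting added after seeing the data, edgeR called 0 windows, with 52643 lower and 6594 higher at an unadjusted p under 0.05. The called windows are described below as a list and not as a count of all changes. That more windows were called lower than higher held in each of the settings that made any call. The 2 directions did not have equal room, since a gain of 10 points cannot start above 90% at 24 hpf. Of the 425 losses, 170 lay among the 759049 windows of 90% to 100% at 24 hpf (0.0224% of them), where 0 gains were called. Windows of 30% to 50% gave 42 losses (0.609% of them) and 2 gains (0.029%). Those of 50% to 70% gave 79 (0.541%) and 0. Those of 10% to 30% gave 2 (0.0272%) and 2 (0.0272%), and those under 10% gave 0 and 5 (0.0109%). The 24 hpf levels took part in the call, so this split is given as a description.

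The 425 windows called lower had median levels of 46.9% and 44.2% at 36 hpf, against 86.4% and 83.6% at 24 hpf. These values made the call and are given as a description. Independent of the call, the same windows had medians of 97.4% and 96.4% in PGCs at 7 hpf. In soma they had medians of 59.8% and 50% at 36 hpf, against 74.9% and 71.5% at 24 hpf. Of 423 with enough calls in soma, 204 were lower by 10 points or more in both soma replicates (48.2%, against 1.27% of all windows). In both replicates 3 were higher at all (0.709%, against 16.2% of all windows). Higher by 10 points or more in both were 0, which is rare among all windows too (0.175%). The called losses formed 420 runs of adjoining windows with at most 2 windows in a run. With only 0.042% of windows called, few calls can adjoin, so nothing is read from this. Called losses were found on all 25 chromosomes, with 7 to 28 on each. These were 0.0172% (chromosome 15) to 0.0853% (chromosome 22) of a chromosome's windows. The cause of this spread was not tested. The called losses had a median of 14 CpGs, against 10 for all windows, and 322 of them held 10 to 24 (75.8%, against 48.0% of all windows). Windows with many CpGs also have more calls, and the fewest calls in any of the 4 libraries had a median of 107 in called windows against 50 in all. The part of depth in the density difference was not tested. Only 4 called losses lay within 1 kb of an unmethylated window without being one, 0.941% against 2.19% of all windows, and 283 lay farther than 20 kb away, 66.6% against 55.3% of all windows. From 7 to 24 hpf, 194 of 423 had already lost 10 points or more in both tables (45.9%, against 2.14% of all windows) and 167 had stayed within 10 points (39.5%, against 84.7%). The 24 hpf levels took part in the call, so these shares are not independent of it and are given as a description. The single CpGs of these windows are given as a description, since their calls made the call of the window. Of 5231 CpGs in the called windows, 90.2% were lower at 36 hpf in both tables and 0.306% were higher in both, and in 201 windows every CpG was lower in both.

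The 10 losses with the largest change, ranked by the smaller of the changes in the 2 tables, give the picture at single places. They are named by position in danRer10, and no gene is assigned to them. The first, chr16:49355501-49356000, had 24.2% and 9.43% methylation in PGCs at 36 hpf, against 78.4% and 73.9% at 24 hpf (edgeR adjusted p = 0.0138). It held 7 shared CpGs, all of which were lower in both tables, with pooled levels of 10.5% to 32.3% at 36 hpf and 66.7% to 84.2% at 24 hpf. In PGCs at 7 hpf it had been at 92.3% and 85.3%. Soma had 26.3% and 7.46% at 36 hpf and already 36.7% and 27.3% at 24 hpf, so the cell types lay far apart at 24 hpf and overlapped at 36 hpf. The PGC levels of both stages chose the window, so this gap is given as a description.

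The second, chr16:24196501-24197000, had 38.9% and 27.7% at 36 hpf, against 91.8% and 84.6% at 24 hpf (edgeR adjusted p = 0.0176). The third, chr6:988001-988500, had 27.1% and 16.8% at 36 hpf, against 76.7% and 68.8% at 24 hpf (edgeR adjusted p = 0.0176). Here the soma replicates disagreed at 36 hpf, at 60.8% and 19.0%. The smallest adjusted p of the table, shared by 4 windows, was reached by chr19:21301501-21302000, with 14.4% and 11.2% at 36 hpf, against 70.7% and 58.4% at 24 hpf (edgeR adjusted p = 0.00652). All of its 11 CpGs were lower in both tables, and with the calls of both libraries pooled no CpG exceeded 27.5% at 36 hpf and none was under 53.3% at 24 hpf. This window was at 96.7% and 98.3% in PGCs at 7 hpf and at 50.6% and 29.6% in soma at 24 hpf. A window that was nearly fully methylated at 24 hpf was chr11:26615001-26615500, with 45.6% and 43.2% at 36 hpf, against 94.0% and 89.9% at 24 hpf. It had read 100% in both PGC libraries of 7 hpf.

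In all 10 named losses the 36 hpf PGC libraries lay below the 24 hpf PGC libraries without overlap, with mean levels of 12.8% to 44.4% at 36 hpf and 64.5% to 92% at 24 hpf. In each of them soma at 24 hpf had a lower mean than PGCs at 24 hpf, at 32.0% to 65.9%. The PGC levels of both stages made the ranking. The lack of overlap and the place of PGCs above soma at 24 hpf are therefore given as a description. The PGC means at 7 hpf were 88.8% to 100%. The distance to the nearest unmethylated window ran from 17000 to 151000 bp. Tested for a change that differs between PGCs and soma, none passed (edgeR adjusted p = 1 for each), with unadjusted p from 0.00344 to 0.214.

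Of the 10 named gains, 6 passed the test and 4 did not. The first, chr11:27824001-27824500, held 27 shared CpGs and had 69.0% and 84.3% at 36 hpf, against 35.7% and 38.3% at 24 hpf (edgeR adjusted p = 0.0233). All 27 CpGs were higher in both tables. Its PGC libraries of 7 hpf read 68.9% and 34.9%, a gap about as wide as the change in the first table. The smallest adjusted p among the named gains was that of chr1:18254001-18254500, with 55.3% and 27.6% at 36 hpf, against 5.43% and 3.33% at 24 hpf (edgeR adjusted p = 0.00979), next to an unmethylated window. Its 21 shared CpGs had 358 and 76 calls at 36 hpf, and 17 of them were higher in both tables. Replicate 2 of 36 hpf had only 3 to 5 calls per CpG there, so few reads made up its level. Soma there had 15.2% and 13.3% at 36 hpf, against 10.9% and 16.4% at 24 hpf. Its test of a difference between PGCs and soma gave an unadjusted p of 2.96e-05 and an edgeR adjusted p of 1. The window chr20:47107001-47107500 reached 97.2% and 97.3% at 36 hpf, against 67.2% and 79.0% at 24 hpf, but its replicates of 7 hpf were again far apart, at 67.3% and 31.4%. The smallest of the called gains was chr12:24993001-24993500, with 14.8% and 14.9% at 36 hpf, against 1.98% and 0.844% at 24 hpf. The 4 gains that were not called had 43.1% to 71.5% at 36 hpf and 8.47% to 33.3% at 24 hpf (edgeR adjusted p = 0.0551 to 0.114). Single CpGs followed the window less closely in some gains, and at chr23:29886501-29887000, which was not called, 2 of 6 CpGs were higher in both tables. Its CpGs with the highest levels at 36 hpf had 25 and 26 calls there in replicate 1, against 1 call each at 24 hpf, so the window's level also moved with which CpGs were covered. The same limit holds for chr4:35945501-35946000, also not called. Its CpG with the highest levels at 36 hpf (84.2% and 93.3%) had 19 and 15 calls there, against 4 and 4 at 24 hpf. The 10 called gains held a median of 18 CpGs, against 10 for all windows. Their median PGC levels were 68.9% and 55.9% at 36 hpf, against 8.96% and 11% at 24 hpf. The PGC medians of 7 hpf were 32.6% and 28.3%. Since low values at 24 hpf made the call, nothing is read from their distance to 7 hpf. Soma was higher at 36 hpf than at 24 hpf in both replicates at 7 of the 10 (70%, against 16.2% of all windows).

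**Figure D4:**
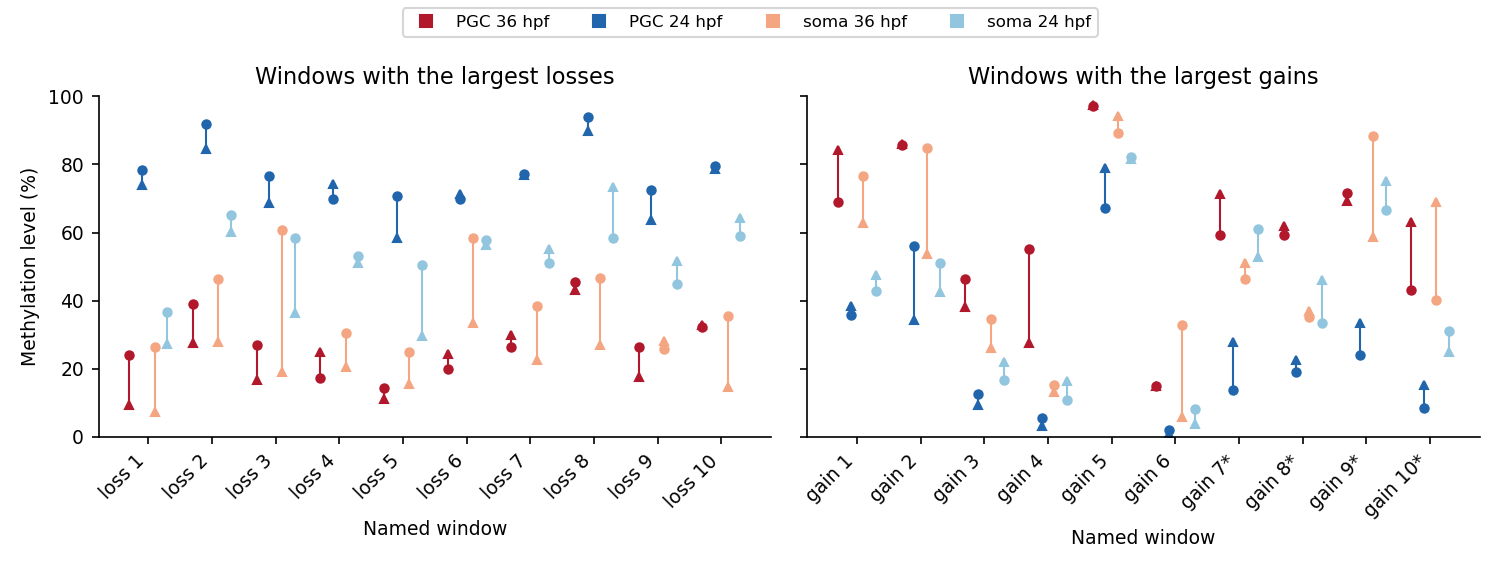
Methylation level (%) of the 10 named losses (left) and 10 named gains (right) in PGCs and soma, with circles for replicate 1, triangles for replicate 2 and a line joining them; an asterisk marks gains that did not pass the test. PGC values of 36 hpf (red) lie below those of 24 hpf (blue) at every loss, and mean soma values of 24 hpf lie below those of PGCs at 24 hpf. The windows were ranked by the PGC change, so both are given as a description.

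Soma lost methylation over the same interval. Over the 999845 windows with at least 20 calls in all 8 libraries, the mean change was -1.90 and -2.06 points in PGCs and -1.05 and -1.64 points in soma. The PGC change was the larger loss in both tables, with a PGC minus soma difference of -0.854 and -0.423 points. An exact two-sided permutation of the cell type within each stage did not separate this difference from 0 (-0.639 points, p = 0.222, 36 relabellings). No window passed edgeR's test of a change that differs between PGCs and soma. At an unadjusted p under 0.05 there were 40149 (4.02%), and limma called 0 as well, with 41875 at an unadjusted p under 0.05. Without PGC 24 hpf replicate 2, edgeR passed 1 window, and with a block for the replicate number it passed 3 (smallest adjusted p = 0.0409). In soma alone the same rule called 0 windows lower (0%) and 1 higher (0.0001%), with 49379 lower and 9103 higher at an unadjusted p under 0.05. That PGCs had 425 called losses and soma 0 does not show that they differ.

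Windows where soma had already lost methylation showed a large loss in PGCs. They were chosen without any PGC library, as the 7849 windows where both soma replicates lost 20 points or more from 7 to 24 hpf. In PGCs these windows averaged 43.8% and 45.2% at 36 hpf, against 66.3% and 62.8% at 24 hpf. Their median change was -22.7 points in the first table and -17.7 points in the second, beside -1.58 and -1.55 points for all 859595 windows that could be sorted this way. In 88.8% of them PGCs were lower in both tables, against 43.5% of all, and in 63.4% they were lower by 10 points or more in both, against 2.26%. Of these windows 194 were called lower in PGCs (2.47%, against 0.0491% of all). Windows that soma had lost by 10 to 20 points showed a median PGC change of -10.4 and -8.73 points, and windows that had stayed within 5 points in soma showed -1.16 and -1.14 points.

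At these 7849 windows PGCs stood above soma at 24 hpf and no longer did so in both tables at 36 hpf. Through 4, 7, 24 and 36 hpf, the mean level of PGC replicate 1 was 95.4%, 94.6%, 66.3% and 43.8%, and that of PGC replicate 2 was 94.7%, 93.6%, 62.8% and 45.2%. Soma replicate 1 had 95.2%, 94.6%, 57.8% and 49.6%, and soma replicate 2 had 94.8%, 92%, 54.6% and 43.1%. PGC minus soma was 8.56 and 8.20 points at 24 hpf, and -5.89 and 2.12 points at 36 hpf. The choice used the soma libraries of 7 and 24 hpf, so the gap at 24 hpf is not independent of it and is given as a description. The soma replicates of 36 hpf differed by more than those of PGCs.

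Windows that soma had gained moved upward in PGCs. Both soma replicates gained 10 points or more from 7 to 24 hpf in 3420 windows. In PGCs these averaged 53.7% and 51.2% at 36 hpf, against 48.2% and 45.4% at 24 hpf, with a median change of 6.04 and 6.15 points. Of them 16.6% were higher by 10 points or more in both tables, against 0.245% of all windows. Most windows start too high for such a rise, so these shares are not on equal terms. Among windows of 30% to 50% in PGCs at 24 hpf, 21.6% rose by as much in the first table and 22.7% in the second. Each of these counts asks for a rise in 1 table only.

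**Figure D5:**
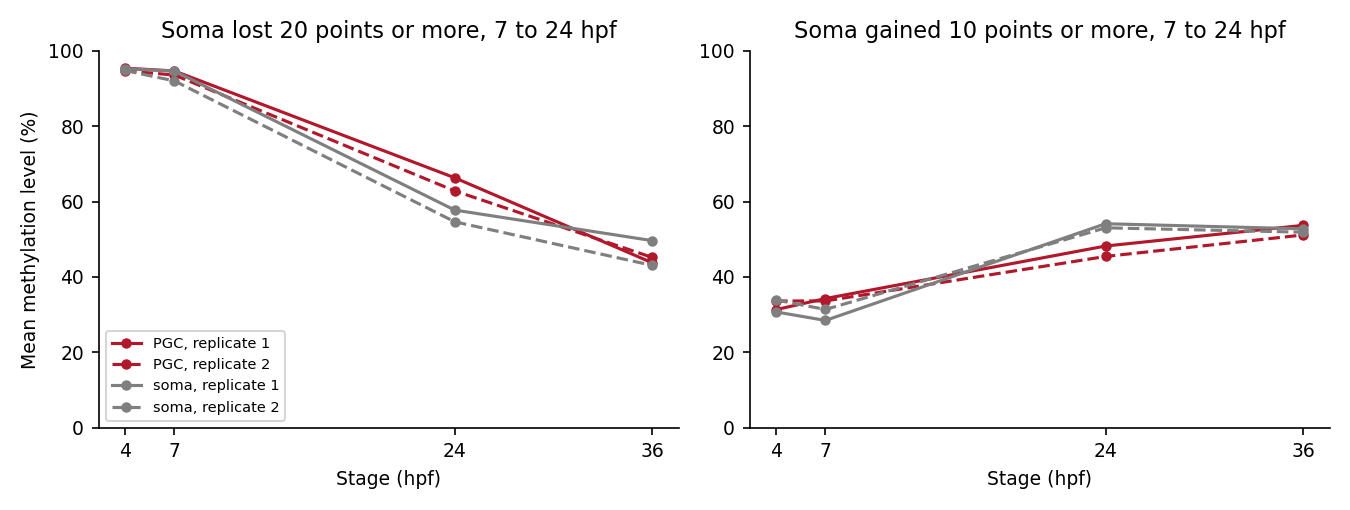
Mean methylation level (%) by stage (hpf) in PGCs (red) and soma (grey), replicate 1 solid and replicate 2 dashed, at windows chosen in soma for a loss of 20 points or more (left, 7849 windows) or a gain of 10 points or more (right, 3420 windows) from 7 to 24 hpf. PGCs changed less than soma from 7 to 24 hpf, which the choice in soma itself favours. They went on after 24 hpf. At 36 hpf, PGC minus soma was -5.89 and 2.12 points at the windows chosen for a loss. It was 0.935 and -0.727 points at those chosen for a gain.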

How the data were processed

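Whole-genome bisulfite sequencing read methylation in fluorescence-sorted PGCs and soma. Per the study's methods and the labels, reads went through fastp for trimming, WALT for mapping to danRer10 and lambda DNA, Picard for removal of duplicates and MethylDackel for CpG calls, joining both strands and leaving out variant sites. The authors deposited raw counts of methylated calls and of all calls per CpG, in 1 table for each replicate number. A CpG was listed only where each of a table's 8 libraries had a call, so the depth of the shallowest library set what was kept. Totals over nuclear and mitochondrial CpGs were 224714339 and 211249119 calls at 36 hpf and 83975415 and 180385748 at 24 hpf. Reads carry no molecular identifiers, and calls on 1 read are not independent.

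From these counts, window levels were computed over CpGs listed in both tables. Windows were tested with edgeR 4.0.16 in R 4.3.3, on methylated and unmethylated counts with a term for each library and 1 dispersion estimated from 5000 evenly spaced windows, and with limma 3.58.1 on log odds of methylation with an offset of 1 call as the alternative. The change in PGCs was set against that in soma with an interaction term. Means were compared by exact permutation. Python 3.11.15, numpy 2.4.6 and scipy 1.17.1 did the rest, and the steps were tested on simulated data. Classes by 24 hpf level, by earlier PGC change and by large losses or gains were chosen in one table and measured in the other. CpG density, 7 hpf levels and earlier soma change were taken from both tables.

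Named windows were the 10 losses and 10 gains with the largest change, ranked by the smaller change of the 2 tables, with at least 5 shared CpGs, at least 40 calls in each of the 4 libraries and 1 direction in both tables. Of windows within 1 kb of each other the first was kept, and called windows came before uncalled ones. No danRer10 genome or annotation was used here, so no gene or sequence is given. The comparison, classes and rules were chosen with earlier results of these data known. The alternatives tried were other windows, filters and tests, thinned calls, a replicate block and leaving out each library.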

Additional observations from a re-analysis of the deposited data

Results flagged for a closer look

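At windows where both soma replicates gained 10 points or more from 7 to 24 hpf, PGCs and soma moved in opposite directions from 24 to 36 hpf. Over the 3408 of these windows with enough calls in all 8 libraries, PGCs changed by 5.51 and 5.75 points and soma by -1.36 and -1.13 points in replicates 1 and 2, a difference of 6.87 points. An exact two-sided permutation of the cell type within each stage gave p = 0.167 over 36 relabellings, where the smallest p it can give is 0.0556. The soma libraries of 24 hpf took part in choosing the windows, so the soma change is not independent of the choice, while the PGC change is. Over the 3420 windows chosen, PGC minus soma was -5.92 and -7.59 points at 24 hpf and 0.935 and -0.727 points at 36 hpf. The opposite moves thus narrowed a gap at 24 hpf that the choice in soma itself favours. Over all 999845 windows with enough calls, soma changed by -1.05 and -1.64 points and PGCs by -1.90 and -2.06 points. The soma change at the chosen windows was thus close to that of all windows.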

How the results depend on the processing

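The mean loss of PGCs kept its direction in every alternative run, with values from -2.06 to -1.25 points (the last for all calls pooled) and from -2.10 to -1.86 points with 1 library left out. The counts of called windows, 425 lower and 10 higher, did not keep their size. They were 0 and 0 with limma, and 27 and 1 with at least 5 CpGs and 30 calls (714893 windows tested). With no filter beyond 1 CpG and 1 call they were 2247 and 80 (1802463 windows tested). Fisher's exact test in each table, at an adjusted p under 0.01 and with no minimum of 10 points, gave 2899 and 203. With calls thinned to equal numbers, an alternative chosen after seeing the data, they were 0 and 0. CpGs with at least 5 calls gave 881 lower windows (865712 tested), and windows of 10 kb gave 28 higher ones (132224 tested). Counts from unlike rules and numbers of windows are not on equal terms. With 1 library left out, 34 to 2579 windows were called lower and 6 to 328 higher, fewest without a 36 hpf library and most without 24 hpf replicate 2. Of the 425, 23 and 25 were also called without 36 hpf replicates 1 and 2, and 309 and 363 without 24 hpf replicates 1 and 2. The cause of these shifts was not tested.

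In the main tests, the numbers shared by libraries of both stages were not taken as a pairing. Nothing ties same-numbered libraries to 1 clutch or day, there are only 2 of them, and their deviations correlated with r = 0.14 across windows. Changes within a table do set same-numbered libraries against each other. The shares in both tables, the minimum of 10 points, the ranking of named windows and the SD of changes rest on that choice. A replicate block gave the same mean change of -1.98 points (exact p = 0.5), 3745 windows lower and 138 higher, among them all 425 and 10, and 3 windows that changed differently in PGCs and soma. Without the block that count was 0, and with 1 library left out it was 0 to 1, the 1 appearing without PGC 24 hpf replicate 2.

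The median change of large losses in the other table was -13.4 points on average, -19.7 for losses of 30 points, -15.7 with at least 5 CpGs and 30 calls, -12.5 in windows of 1 kb and -9.48 with equal calls. For large gains it was 0.44 points, and 1.5, 1.70, 0.342 and 0 under the same alternatives. At windows that soma had lost, the PGC median stayed between -23.1 and -18.3 points. The difference between windows of 50% to 70% and of 90% to 100% was -4.54 points with classes from 24 hpf and 2.38 points, of opposite sign, with classes from 7 hpf. The difference between dense and sparse windows was 1.94 points, and 1.84 points with density from shared CpGs. It could not be computed with at least 5 CpGs. For single named windows, 131 alternatives left the call as it was, 75 ended it, 12 made it and 0 reversed the direction.

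The correlation of the changes of the 2 tables across windows, which are not independent replicates, was 0.12 where the fewest calls were under 40 and 0.42 from 80 calls on.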
